A study of Mus musculus with 11 samples.

Results

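The histone deacetylase genes described here are the 10 members Hdac1 to Hdac9 and Hdac11, chosen by name as a gene family, not by a threshold on these values. They were represented by 17 probe sets annotated to 1 of these genes alone, out of 45101 probe sets on the array. The brightest probe set of a gene over all arrays was taken as its main one, and all 10 members passed the filter on dim probe sets, as did 13710 of the 18194 genes with a probe set of their own. Expression was measured on 11 Affymetrix arrays, each of total RNA from mouse skin. The 3 groups were vehicle (3 arrays), 6 h after 1 mg/kg of ABBV-075 (4 arrays) and 24 h after 1 mg/kg of ABBV-075 (4 arrays). ABBV-075 (mivebresib) inhibits the BET bromodomain proteins, which bind acetylated histones. The sources used here do not give strain, sex, age, dosing route, the hour at which vehicle skin was taken, or whether any array held pooled animals.

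Histone deacetylases remove acetyl groups from lysines of histones and other proteins, and so act on the marks that BET proteins read. Hdac1, Hdac2, Hdac3 and Hdac8 belong to class I, nuclear enzymes of which the first 3 work inside corepressor complexes. Hdac4, Hdac5, Hdac7 and Hdac9 belong to class IIa, which shuttle between nucleus and cytoplasm, bind MEF2 transcription factors and have weak catalytic activity of their own. Hdac6 is a largely cytoplasmic tubulin deacetylase, and Hdac11 is the single class IV member. In mouse epidermis Hdac1 and Hdac2 are known to act redundantly in keratinocyte development.

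Hdac2 and Hdac9 had the largest differences from vehicle at 6 h in either direction, and the stretches before their annotated starts are shown to place those values beside the regulatory sequence. Each stretch is the 250 bases before a RefSeq transcript start in build GRCm38.p6, printed in the direction of transcription, with capitals marking the letters searched for: the GC box (GGGCGG), the CCAAT box (CCAAT) and the TATA box (TATAAA), each searched on both strands. No match overlapped another in these stretches. Sequences were found for 8 of the 10 members. The 2 Hdac9 starts are numbered by genomic coordinate, so on the minus strand the second lies upstream of the first.
Hdac2, chr10:36974294-36974543, plus strand: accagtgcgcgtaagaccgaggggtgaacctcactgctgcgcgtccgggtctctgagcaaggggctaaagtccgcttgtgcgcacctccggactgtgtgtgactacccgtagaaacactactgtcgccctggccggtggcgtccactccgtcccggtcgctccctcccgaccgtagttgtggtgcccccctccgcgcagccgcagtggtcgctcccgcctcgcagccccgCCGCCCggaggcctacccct
Hdac9, first of 2 starts, chr12:34528890-34529139, minus strand: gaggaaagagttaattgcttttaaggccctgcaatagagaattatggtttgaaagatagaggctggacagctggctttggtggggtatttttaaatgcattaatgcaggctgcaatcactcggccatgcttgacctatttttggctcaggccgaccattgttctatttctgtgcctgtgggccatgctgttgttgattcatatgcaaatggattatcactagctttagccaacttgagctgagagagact
Hdac9, second of 2 starts, chr12:34917096-34917345, minus strand: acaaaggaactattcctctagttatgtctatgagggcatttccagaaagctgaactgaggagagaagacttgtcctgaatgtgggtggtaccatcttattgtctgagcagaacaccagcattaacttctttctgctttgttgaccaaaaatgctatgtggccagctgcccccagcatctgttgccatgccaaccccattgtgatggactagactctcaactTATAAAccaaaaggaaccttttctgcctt
The Hdac2 stretch held 27 CpG pairs, a GC content of 68.8% and 1 GC box, a motif found in 32.7% of 32851 such stretches. The Hdac9 stretches held 2 and 0 CpG pairs with GC contents of 43.6% and 44.4%, and the second held 1 TATA box, found in 12.4% of stretches. No CCAAT box, found in 33.8% of stretches, was in these windows. Over all stretches the median was 6.0 CpG pairs and a GC content of 52.4%. Which Hdac9 start gave rise to the measured RNA was not tested.

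Values are quantile-normalized and given as log2(intensity + 16), where 4.00 is the floor and 5.21 is the 40th percentile of every array. Group values are mean ± SD and differences are ± SE. The arrays were not alike in brightness or RNA control signals: the trimmed mean of the deposited intensities ran from 205 to 244 in vehicle, 82.8 to 244 at 6 h and 116 to 183 at 24 h. The 5′ to 3′ signal ratio of beta-actin, which is low where RNA is shortened, ran from 0.484 to 0.593 in vehicle, 0.0725 to 0.425 at 6 h and 0.198 to 0.529 at 24 h, and it was under 0.3 on 3 arrays (6 h replicates 3 and 5 and 24 h replicate 2). All 3 were arrays after ABBV-075, so Hdac differences from vehicle that moved by over 1.5 times with the ratio in the fit are also given with it. Every 6 h array had a lower ratio than every vehicle array. At 6 h the ratio and ABBV-075 therefore cannot be told apart, and differences with the ratio in the fit show dependence on the setting only. The 5′ to 3′ ratio of Gapdh ran from 0.698 to 0.911 in vehicle, 0.104 to 0.711 at 6 h and 0.804 to 1.08 at 24 h. It was 0.104 on 6 h replicate 5, but 0.711 on 6 h replicate 3 and 0.804 on 24 h replicate 2. Skin markers were bright on every array, with list means of 9.81 to 12.12 for basal and 11.27 to 12.20 for suprabasal keratinocytes, and skeletal muscle markers were bright too (11.89 to 12.93).

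None of the 10 genes was called at an adjusted p under 0.05 in any of the 3 comparisons by limma, against 0% of all genes in each. At 6 h, 3 members lay above vehicle (as did 50.4% of all genes) and 7 below, with adjusted p-values from 0.147 to 0.838 and a median difference of -0.36, where the median of all genes was 0.0037. That tally depended on the setting. With the actin ratio in the fit 7 members lay above and 3 below (median 0.12), and with the replicate block 6 and 4 (median 0.15). Without the 3 arrays of low ratio 4 lay above and 6 below (median -0.03). Before any normalization all 10 lay below (median -0.81), in values where the median of all genes was -0.68. At an unadjusted p under 0.05 there were 3 members at 6 h (16.1% of all genes), 1 at 24 h (7.63%) and 1 between 24 h and 6 h (9.27%). At 24 h, 5 members lay above (47.6% of all genes) and 5 below vehicle with a median of -0.10 (all genes -0.02), and for 24 h minus 6 h, 6 lay above 0 (47.4% of all genes) and 4 below, with a median of 0.14 (all genes -0.02). Groups did not overlap for 3 members at 6 h (18.5% of all genes), 1 at 24 h (11.1%) and 1 between 24 h and 6 h (5.46%).

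**Figure D1:**
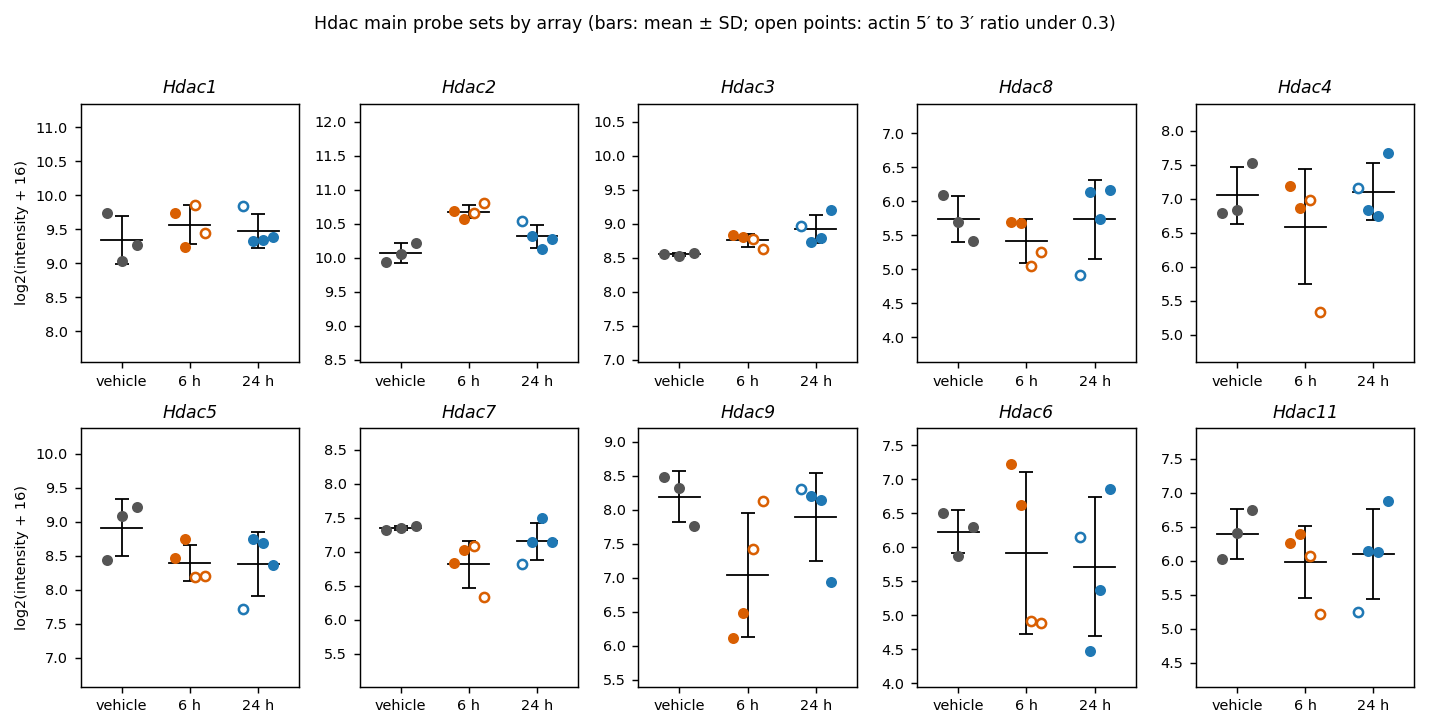
Main probe set of each Hdac gene on the 11 arrays, as log2(intensity + 16) on axes of equal span, with 1 point per array, mean and SD per group, and open points for the 3 arrays with a beta-actin ratio under 0.3. The 4 arrays at 6 h lie above all vehicle arrays for Hdac2, and the open points are the lowest for Hdac5 and Hdac8.

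Hdac2, a class I deacetylase of the Sin3, NuRD and CoREST complexes, had the smallest p of the members at 6 h. Its values were 9.93, 10.05 and 10.22 in vehicle, 10.68, 10.57, 10.65 and 10.80 at 6 h (replicates 1, 2, 3 and 5), and 10.12, 10.54, 10.32 and 10.27 at 24 h (replicates 1 to 4). The lowest 6 h value exceeded the highest value of the other 2 groups, while vehicle and 24 h overlapped. The 6 h mean exceeded vehicle by 0.61 ± 0.16 (95% interval 0.27 to 0.95), or 1.53-fold, with an unadjusted p of 0.00237 and a limma adjusted p of 0.147. Of all genes tested, 9.77% lay above vehicle without overlap at 6 h. At 24 h the difference from vehicle was 0.25 ± 0.16 (adjusted p = 0.704) and 0.15 with the actin ratio in the fit, and 24 h minus 6 h was -0.36 ± 0.14 (95% interval -0.68 to -0.05, adjusted p = 0.47), where 3.54% of all genes lay lower without overlap.

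The main Hdac2 probe set, 1445684_s_at, is of a type that can match more than 1 transcript, so the other probe sets bear on its reading. Probe set 1449080_at differed by 0.37 ± 0.20 at 6 h, again with no overlap, from 9.60 to 9.86 in vehicle to 9.98 to 10.27 at 6 h. The dim 1439704_at, below the 40th percentile on all 3 vehicle arrays, differed by 0.36 ± 0.22 with overlap. The 3 probe sets thus lay on the same side of vehicle at 6 h, and the mean of them differed by 0.45 ± 0.14 (limma adjusted p = 0.21). For 24 h minus 6 h, only the main probe set was without overlap. There 1449080_at differed by -0.15 ± 0.18 and 1439704_at by 0.03 ± 0.20, both with overlap. The 6 h difference of the main probe set was 0.44 ± 0.19 with the actin ratio in the fit and 0.55 ± 0.17 without the 3 arrays of low ratio. With limma array weights it was 0.54 ± 0.11 and was called (adjusted p = 0.0118), a fit in which 2498 genes were called. Before any normalization Hdac2 differed by -0.13 ± 0.38, which is 0.55 above the median gene at -0.68.

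Hdac1, the closest paralogue of Hdac2, gave 9.73, 9.03 and 9.26 in vehicle, 9.73, 9.23, 9.86 and 9.44 at 6 h, and 9.34, 9.84, 9.32 and 9.39 at 24 h. Vehicle spanned nearly the whole range, so the groups overlapped. The differences were 0.22 ± 0.23 at 6 h (95% interval -0.28 to 0.72, limma adjusted p = 0.656) and 0.13 ± 0.23 at 24 h (95% interval -0.37 to 0.63, adjusted p = 0.897). Leaving out 1 array moved the 6 h value between 0.06 and 0.41, without vehicle replicate 3 and without vehicle replicate 1. With the actin ratio in the fit the differences were -0.01 and 0.00.

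Hdac3, a class I enzyme that works within a corepressor complex, had the smallest vehicle spread of the members, at 8.55, 8.53 and 8.57. It read 8.83, 8.80, 8.77 and 8.62 at 6 h and 8.79, 8.96, 8.73 and 9.20 at 24 h, so that all 8 arrays after ABBV-075 lay above all 3 vehicle arrays. The differences were 0.21 ± 0.16 at 6 h (limma adjusted p = 0.544) and 0.37 ± 0.16 at 24 h (95% interval 0.03 to 0.72, unadjusted p = 0.036, adjusted p = 0.629). The share of all genes that lay higher without overlap was 9.77% at 6 h and 5.09% at 24 h. After scaling to a common median these differences were 0.04 and 0.05, with the median gene at -0.09 and -0.23, and as deposited they were -0.62 and -0.38. Its one probe set, 1426437_s_at, is also of the type that can match several transcripts, so it had no value once such probe sets were left out.

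Hdac8, a class I enzyme that deacetylates the cohesin subunit SMC3, was dim, with 9 of 11 arrays above the 40th percentile. It read 6.09, 5.69 and 5.42 in vehicle, 5.70, 5.68, 5.04 and 5.26 at 6 h and 5.74, 4.91, 6.13 and 6.16 at 24 h. The 3 lowest values were those of the 3 arrays with an actin ratio under 0.3, a pattern shown by 3.6% of all genes tested. The differences were -0.31 ± 0.31 at 6 h and 0.00 ± 0.31 at 24 h (95% interval -0.68 to 0.69). With the actin ratio in the fit the differences were 0.18 and 0.27. Without vehicle replicate 1 the 6 h difference was -0.13, and without 24 h replicate 2 the 24 h difference was 0.28.

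**Figure D2:**
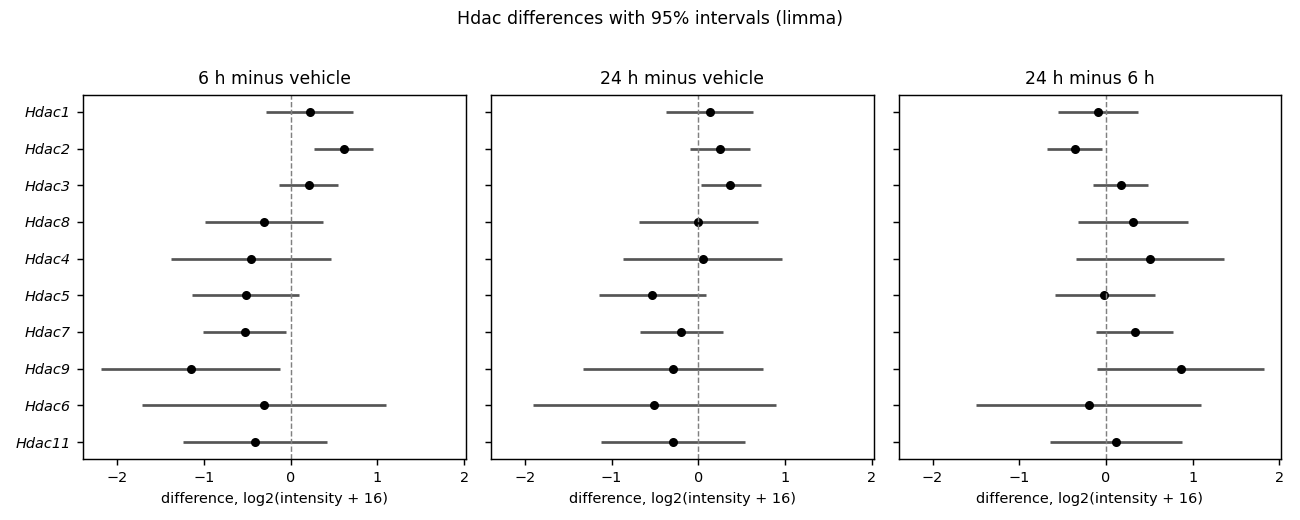
Difference of each Hdac gene in the 3 comparisons, on the log2(intensity + 16) scale, with unadjusted 95% intervals from limma. The 6 h interval of Hdac2 (0.27 to 0.95) lies above 0, those of Hdac7 (-1.01 to -0.06) and Hdac9 (-2.19 to -0.12) lie below, and no member was called after adjustment.

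All 4 class IIa genes lay below vehicle at 6 h, by -0.46 to -1.15, where 50.4% of all genes lay above, and none was called. With the actin ratio in the fit 2 of the 4 lay below, with Hdac4 at 0.13 and Hdac5 at 0.07, and with the replicate block 3 of the 4 (Hdac4 at 0.19). Hdac9, which is known for roles in muscle, vessels and adipocyte differentiation, had the largest difference and a wide spread. It read 8.48, 8.33 and 7.77 in vehicle, 6.12, 6.48, 7.42 and 8.13 at 6 h and 8.14, 8.31, 8.20 and 6.94 at 24 h. At 6 h, replicates 1, 2 and 3 lay below all vehicle arrays while replicate 5 lay within them, and at 24 h replicate 4 alone was low. The 6 h difference was -1.15 ± 0.47 (95% interval -2.19 to -0.12), or 2.23-fold lower, with an unadjusted p of 0.0322 and a limma adjusted p of 0.272. At 24 h it was -0.29 ± 0.47 (adjusted p = 0.884), and it was 0.02 without 24 h replicate 4, -0.77 ± 0.43 with the actin ratio in the fit and -0.43 without the 3 arrays of low ratio. The difference of 24 h minus 6 h was 0.86 ± 0.44 (95% interval -0.10 to 1.82, adjusted p = 0.592).

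The setting decided how Hdac9 was called at 6 h. It was called in the values as deposited (-1.96 ± 0.42, adjusted p = 0.0158, with the median gene at -0.68) and with array weights (-1.59 ± 0.27, adjusted p = 0.00797), which run from 0.27 for 24 h replicate 4 and 0.299 for 6 h replicate 5 to 4.85 for vehicle replicate 3. With array weights the 24 h minus 6 h difference of 1.47 ± 0.31 was called too (adjusted p = 0.035). Without 6 h replicate 5 the 6 h difference was -1.52, and without 6 h replicate 1 it was -0.85. With the actin ratio in the fit it was -2.02 ± 0.52 (adjusted p = 0.28), and without the 3 arrays of low ratio -1.91 ± 0.41 (adjusted p = 0.21). Dropping those 3 arrays left 6 h replicates 1 and 2, which had the lowest Hdac9 values at 6 h (6.12 and 6.48). With the replicate number of the labels as a block the 6 h difference was -1.84 ± 0.34 (adjusted p = 0.139). A second probe set, 1421306_a_at, lay below the 40th percentile on all 11 arrays and differed by 0.28 ± 0.28 at 6 h, and the mean of both probe sets differed by -0.43 ± 0.24 (adjusted p = 0.412).

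The low Hdac9 arrays were arrays of different cell type marker content. The 3 lowest Hdac9 values, of 6 h replicates 1 and 2 and 24 h replicate 4, were on the 3 arrays with the lowest adipocyte and macrophage marker means and the highest basal keratinocyte means. Of all genes tested, 8.37% had these 3 arrays as their lowest, a pattern also looked for after the values had been seen. The adipocyte mean (7 of 8 listed genes measured) was 9.28, 9.16 and 8.12 on them and 9.83 to 11.03 on the other 8 arrays. The macrophage mean (8 genes) was 9.31, 9.55 and 8.16 against 10.26 to 11.60. The basal keratinocyte mean (8 genes) was 11.47, 11.28 and 12.12 against 9.81 to 10.53. No list other than adipocyte and macrophage had these 3 arrays as its lowest. For the fibroblast and endothelial lists the lowest were 24 h replicate 4 and 6 h replicates 2 and 5. The skeletal muscle mean was highest on 24 h replicate 4 (12.93). All 7 adipocyte, 8 macrophage and 8 fibroblast markers lay below vehicle at 6 h, with medians of -0.98, -0.80 and -0.30, and none was called. At 24 h all of these markers lay below vehicle too, with medians of -0.84, -0.90 and -0.63, where Hdac9 differed by -0.29. No macrophage or fibroblast marker was at the floor, while Lep was there on 24 h replicate 4 and Itgb4 on vehicle replicate 4 and 6 h replicate 5. Their part in the Hdac9 difference was not tested. In bulk skin RNA, fewer cells of a type and less RNA per cell cannot be told apart.

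**Figure D3:**
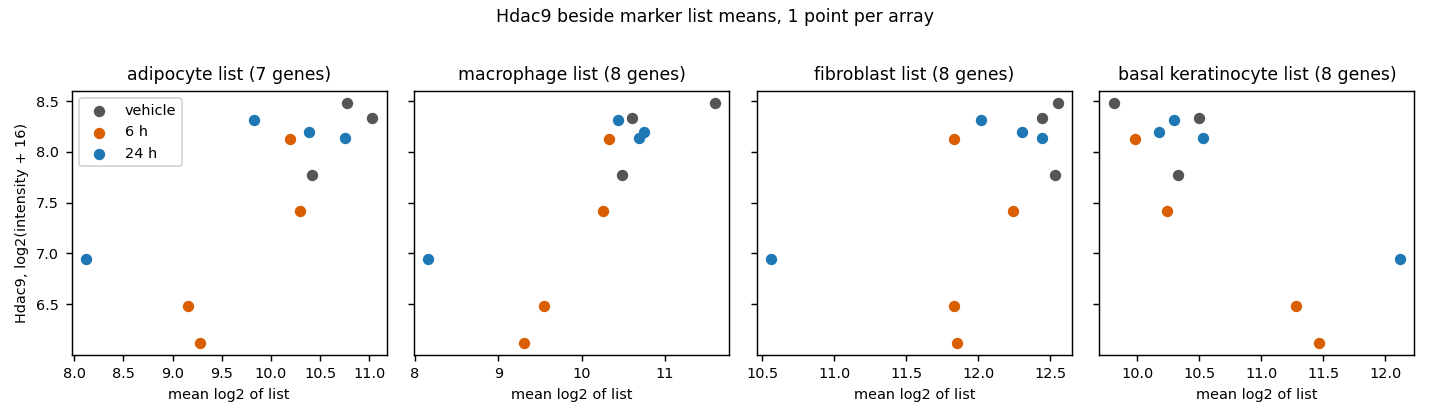
Hdac9 on the vertical axis against the mean log2(intensity + 16) of 4 marker lists on the horizontal axes, 1 point per array, coloured by group. The 3 arrays with Hdac9 at 6.12, 6.48 and 6.94 have the 3 lowest adipocyte and macrophage means and the 3 highest basal keratinocyte means.

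Hdac7, a class IIa gene known for its role in endothelial cells and thymocytes, read 7.32, 7.35 and 7.38 in vehicle, 6.83, 7.02, 7.09 and 6.33 at 6 h and 7.50, 6.82, 7.15 and 7.14 at 24 h. All 4 arrays at 6 h lay below all vehicle arrays, as did 8.77% of all genes tested. The difference was -0.53 ± 0.22 at 6 h (95% interval -1.01 to -0.06, unadjusted p = 0.0315, limma adjusted p = 0.272) and -0.20 ± 0.22 at 24 h (adjusted p = 0.834). Without 6 h replicate 5, the lowest array, the 6 h value was -0.37, and it was -0.10 ± 0.22 with the actin ratio in the fit. At 24 h the difference was 0.04 with the ratio and -0.09 without 24 h replicate 2. The second probe set, 1420812_at, differed by -0.19 ± 0.28 at 6 h and 0.08 ± 0.28 at 24 h, both with overlap. The endothelial marker mean (8 genes, all below vehicle at 6 h and none called) ran from 7.30 to 7.98 in vehicle and 6.67 to 7.04 at 6 h. At 24 h it ran from 6.29 to 7.40, with 7 of the 8 genes below vehicle (median -0.68, against -0.70 at 6 h). The lowest mean, 6.29, was on 24 h replicate 4, where Hdac7 read 7.14. The part of endothelial content in the Hdac7 difference was not tested. Pecam1 was at the floor on 6 h replicate 5 and 24 h replicate 2, and Tie1 on 6 h replicate 5.

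Hdac5, a signal-dependent class IIa repressor, read 8.43, 9.08 and 9.22 in vehicle, 8.46, 8.74, 8.18 and 8.20 at 6 h and 8.69, 7.72, 8.74 and 8.36 at 24 h. The differences were -0.52 ± 0.28 at 6 h (95% interval -1.14 to 0.10, limma adjusted p = 0.395) and -0.53 ± 0.28 at 24 h (95% interval -1.15 to 0.09, adjusted p = 0.671). Its 3 lowest arrays were those with an actin ratio under 0.3, as for Hdac8, which makes 2 of the 10 members against 3.6% of all genes. That pattern was looked for after the values had been seen. With the ratio in the fit the differences were 0.07 ± 0.28 and -0.21 ± 0.23, so that the 6 h sign turned. Without 24 h replicate 2 the 24 h difference was -0.31.

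Hdac4, a class IIa gene known for roles in muscle and cartilage, read 6.79, 6.83 and 7.53 in vehicle, 7.19, 6.87, 6.98 and 5.33 at 6 h and 6.75, 7.16, 6.83 and 7.67 at 24 h. The 6 h difference of -0.46 ± 0.42 (limma adjusted p = 0.609) rested on replicate 5, the array with the lowest actin ratio, without which it was -0.04. At 24 h the difference was 0.05 ± 0.42 (95% interval -0.87 to 0.97). With the actin ratio in the fit the differences were 0.13 and 0.37. A second probe set, 1454693_at, differed by -0.16 ± 0.22 at 6 h and 0.08 ± 0.22 at 24 h. The third, 1447566_at, was at the floor on all 3 vehicle arrays and below the 40th percentile on all 11.

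Hdac6 had the widest spread of the members, with a pooled within-group SD of 0.973 where the median gene had 0.344. It read 6.50, 5.88 and 6.30 in vehicle, 7.22, 6.63, 4.92 and 4.89 at 6 h and 5.38, 6.15, 4.48 and 6.86 at 24 h. Hdac6 was dim, and lay above the 40th percentile on 8 arrays, the fewest of the members. The arrays below that percentile were 6 h replicates 3 and 5 and 24 h replicate 3. Their deposited intensities were 7.5, 8.87 and 6.26, so the wide spread rests partly on dim values. At 6 h, replicates 1 and 2 lay above every vehicle array and replicates 3 and 5, both of low actin ratio, below every one. At 24 h the lowest value, 4.48, was on replicate 3, with a ratio of 0.475. Replicate 2 at 24 h, with a ratio of 0.198, read 6.15, within the vehicle range. The differences of -0.31 ± 0.64 at 6 h (95% interval -1.71 to 1.10) and -0.51 ± 0.64 at 24 h (95% interval -1.91 to 0.90) had intervals that span both signs. With the actin ratio in the fit they were 0.12 and -0.27. Without the 3 arrays of low ratio the 6 h difference was 0.72, and without 24 h replicate 3 the 24 h difference was -0.10.

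Hdac11, which removes long-chain fatty acyl groups as well as acetyl groups, read 6.02, 6.40 and 6.75 in vehicle, 6.26, 6.39, 6.07 and 5.21 at 6 h and 6.12, 5.25, 6.14 and 6.88 at 24 h. The 2 lowest values belonged to the 2 arrays with the lowest actin ratios, 6 h replicate 5 and 24 h replicate 2. The differences were -0.41 ± 0.38 at 6 h (limma adjusted p = 0.619) and -0.29 ± 0.38 at 24 h (adjusted p = 0.856). They were 0.44 and 0.17 with the ratio in the fit, and -0.15 without 6 h replicate 5 and -0.01 without 24 h replicate 2. The second probe set, 1454803_a_at, differed by -0.32 ± 0.51 and -0.40 ± 0.51.

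**Figure D4:**
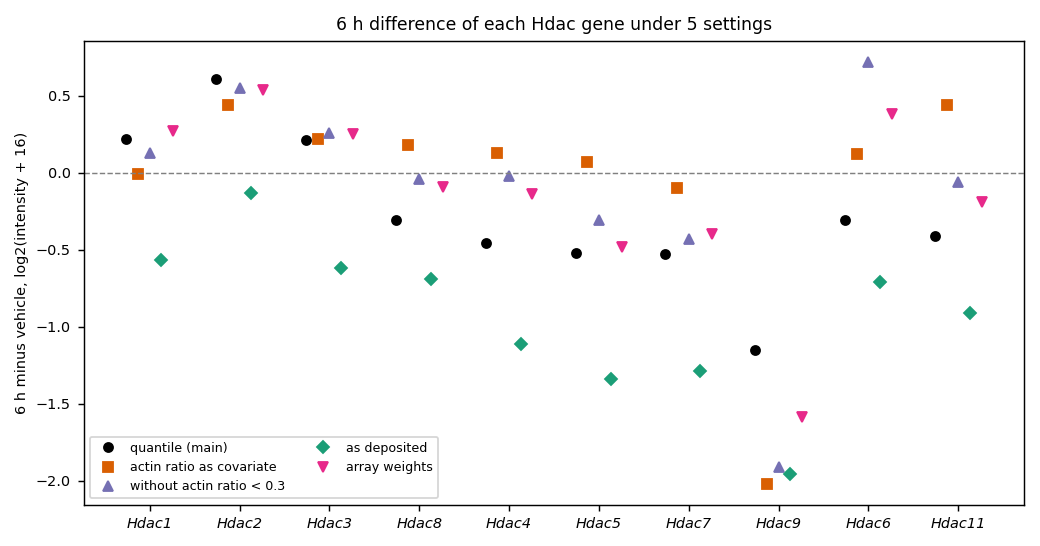
Difference at 6 h from vehicle of each Hdac gene, on the log2(intensity + 16) scale, under 5 settings, 1 symbol per setting. Hdac9 lies below 0 in all 5 (-1.15 to -2.02), Hdac2 lies above 0 in all but the values as deposited (-0.13), and with the actin ratio as covariate Hdac1 is at -0.01 while Hdac4, Hdac5, Hdac6, Hdac8 and Hdac11 lie above 0 (0.07 to 0.44).

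The members differed in their spread between arrays of a group. Hdac2 and Hdac3 had pooled within-group SDs of 0.14 each, at the 4.18 and 4.21 percentiles of all genes. Hdac7 and Hdac1 stood at 0.272 and 0.291, Hdac5 and Hdac8 at 0.391 and 0.442, and Hdac11, Hdac4, Hdac9 and Hdac6 at 0.553, 0.618, 0.707 and 0.973. The SE of the 6 h difference was 0.16 for Hdac2 and Hdac3 and 0.64 for Hdac6.

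The genes that work with or against these enzymes were taken from 4 lists. Of 41 subunits of class I corepressor complexes, 36 were tested, 20 above and 16 below vehicle at 6 h with a median of 0.06, and 18 above and 18 below at 24 h. At 6 h, 8.33% of them had an unadjusted p under 0.05, against 16.1% of all genes, and none was called. The 3 of smallest p were Rbbp4, a histone chaperone subunit shared by Sin3 and NuRD (0.47 ± 0.15, adjusted p = 0.19), Mbd2, a methyl-CpG binding NuRD subunit (-0.53 ± 0.19, adjusted p = 0.234), and Mier3 (0.42 ± 0.17, adjusted p = 0.271). Each was without overlap between groups, as were 18.5% of all genes at 6 h. At 24 h they were Tbl1xr1, of the Hdac3 corepressor complex (0.37 ± 0.16, adjusted p = 0.644), the NuRD helicase Chd4 (0.63 ± 0.30, adjusted p = 0.653) and Mbd2 (-0.35 ± 0.19, adjusted p = 0.679).

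Partners of the class IIa enzymes (MEF2 factors, adaptor proteins that hold them in the cytoplasm, and their kinases) gave 23 tested genes, 11 above and 12 below vehicle at 6 h, with 8.7% at an unadjusted p under 0.05 (all genes 16.1%). Sik1, a kinase that phosphorylates class IIa enzymes, had the smallest p at 6 h, with a difference of 0.58 ± 0.22 (limma adjusted p = 0.246), and 24 h minus 6 h was -0.59 ± 0.20 (adjusted p = 0.389). Camk1, another class IIa kinase, differed by -0.74 ± 0.32 at 6 h (adjusted p = 0.297). Mef2c, a transcription factor repressed by class IIa enzymes, differed by 0.66 ± 0.30 at 24 h (adjusted p = 0.647) and by 0.94 ± 0.27 between 24 h and 6 h (adjusted p = 0.322). Of 8 skeletal muscle markers, 7 lay above vehicle at 24 h (median 0.32), and all 8 lay higher at 24 h than at 6 h (median 0.36), with 0 called. Their part in the Mef2c differences was not tested.

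The sirtuins are deacetylases that use NAD and are unrelated in sequence, and they held the smallest adjusted p of the 4 lists. Sirt1, a nuclear deacetylase of histones and p53, averaged 9.15 at 6 h against 8.15 in vehicle, a difference of 1.01 ± 0.18 (limma adjusted p = 0.0878). Its 6 h values lay above vehicle without overlap, as did those of 9.77% of all genes. At 24 h Sirt1 differed by 0.34 ± 0.18 (adjusted p = 0.669) and 24 h minus 6 h was -0.67 ± 0.16 (adjusted p = 0.23). The mitochondrial Sirt5 differed by -0.76 ± 0.27 at 6 h (adjusted p = 0.234). Of the 7 sirtuins 3 lay above and 4 below vehicle at 6 h. An unadjusted limma p under 0.05 was found for 2 of the 7 (28.6%), 1 higher and 1 lower, where all genes had 16.1%.

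The opposing enzymes, 15 lysine acetyltransferases, lay 7 above and 8 below vehicle at 6 h and 10 above and 5 below at 24 h, with no call. At 6 h, 4 of the 15 (26.7%) had an unadjusted limma p under 0.05, 2 higher and 2 lower (all genes 16.1%). Kat2b, or PCAF, differed by -0.44 ± 0.15 (limma adjusted p = 0.225) and Taf1, of the TFIID complex, by 0.46 ± 0.17 (adjusted p = 0.236) at 6 h. Naa60 was below vehicle at both times, by -0.68 ± 0.29 and -0.99 ± 0.29 (adjusted p = 0.291 and 0.531). The genes named in these lists are those with the smallest p within their list, so their order is a description. The 2 differences from vehicle share the same 3 vehicle arrays.

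**Figure D5:**
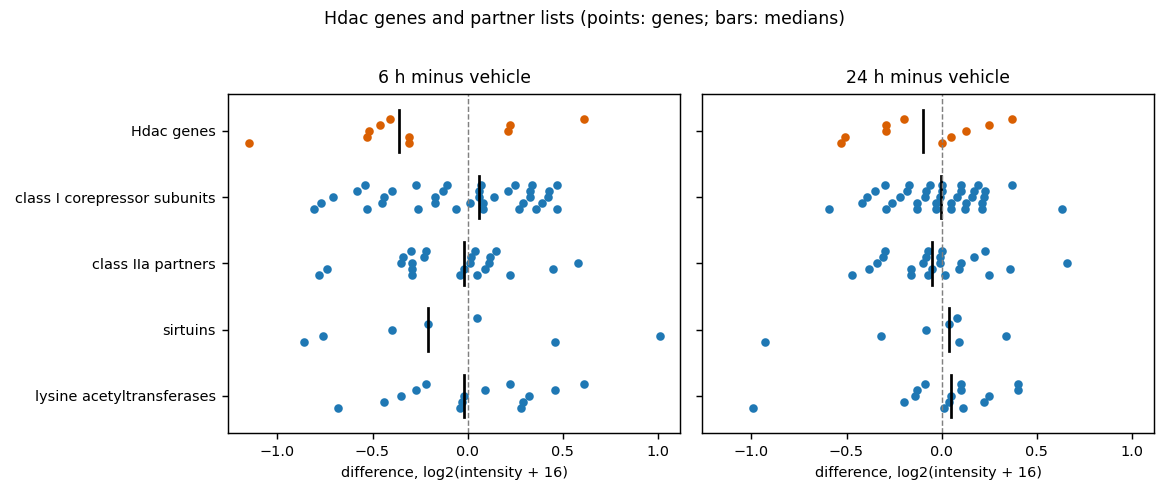
Difference from vehicle at 6 h and 24 h of the 10 Hdac genes and of the 4 partner lists, on the log2(intensity + 16) scale, 1 point per gene with a bar at the median. The Hdac median is -0.36 at 6 h and -0.10 at 24 h, and the 36 corepressor subunits are centred at 0.06 and -0.00.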

How the data were processed

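Total RNA (200 ng) was amplified with an Affymetrix 3′ kit, per the labels' protocols. The deposited values are linear probe set intensities, 12.9% to 16.6% of them below 0. The sources used here do not give the software, background correction or scaling behind them. Intensities were quantile normalized, floored at 0 and taken as log2(intensity + 16), a scale that understates changes of dim genes. Of 45101 probe sets, 34958 carry 1 gene symbol, 932 carry several and 9211 are unnamed here. A gene was tested when its brightest own probe set lay above the 40th percentile on at least 3 arrays. One limma fit (version 3.58.1, R 4.3.3) over 11 arrays gave each group a mean, with Benjamini-Hochberg adjustment over 13710 genes and a threshold of 0.05. It was tested on simulated data. Each probe set was also fitted (24897 tested).

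All members are named, and in each partner list the up to 3 genes of smallest p per comparison were eligible for naming. Members, lists and quantile normalization were chosen with earlier results of these data known. The labels do not say whether replicates are separate animals, so p-values measure only the spread between these arrays, and the number of arrays limits the precision. At most 3 intensities were identical between any 2 arrays. Deviations of same-numbered arrays from their group means had r of 0.25, 0.13 and 0.21 between vehicle and 24 h. Differently numbered ones there ran from -0.35 to 0.21. Same-numbered arrays had -0.12 and -0.07 between vehicle and 6 h, and -0.06, -0.35 and 0.17 between 6 h and 24 h. Differently numbered 6 h and 24 h arrays ran from -0.54 to 0.56, so these values do not show pairing by number. Alternatives were other normalizations, pseudocounts, filters and probe set rules, array weights, a variance trend, the replicate block, the actin ratio and leaving out arrays. Some listed genes are not reported here, and Rcor2 and Mef2b were below the filter.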

Additional observations from a re-analysis of the deposited data

Results flagged for a closer look

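For 2 of 20 groups of 4 arrays, 1 array stood far from the other 3, where chance gives about 1 group in 20. Hdac1 read 9.84 on 24 h replicate 2, against 9.32 to 9.39 on the other 24 h arrays. Hdac9 read 6.94 on 24 h replicate 4, against 8.14 to 8.31 on the other 24 h arrays.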

How the results depend on the processing

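No Hdac gene was called in any comparison when 1 array was left out (0 to 0 members). In the values as deposited 1 member was called at 6 h, and with array weights 2 at 6 h and 1 for 24 h minus 6 h. Over all genes, calls at 6 h were 855 as deposited (2 higher, 853 lower), 18 with no filter, 7 with the mean of a gene's probe sets and 2498 with array weights (1057 higher, 1441 lower). At 24 h they were 6 as deposited, 1 with no filter and 59 with array weights. For 24 h minus 6 h they were 2 when a gene's probe sets were averaged, 423 with array weights, 1 with the actin ratio and 1 when x_at and s_at types were dropped. Leaving out 1 array gave 0 to 23 calls at 6 h (23 without 24 h replicate 4), 0 to 1 at 24 h (1 without 6 h replicate 2) and 0 to 7 for 24 h minus 6 h (7 without 6 h replicate 5). With the replicate block, no Hdac gene was called and 1 gene was called at 6 h. The block turned the 6 h differences of Hdac4 (0.19), Hdac6 (0.11) and Hdac11 (0.22), and those of 24 h minus 6 h of Hdac4 (-0.09) and Hdac11 (-0.36).

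Signs turned at 6 h as deposited for Hdac1 (-0.57), Hdac2 (-0.13) and Hdac3 (-0.62), with array weights for Hdac6 (0.38), with the actin ratio for Hdac1 (-0.01), Hdac4 (0.13), Hdac5 (0.07), Hdac6 (0.12), Hdac8 (0.18) and Hdac11 (0.44), and without the low-ratio arrays for Hdac6 (0.72). At 24 h they turned after median scaling for Hdac1 (-0.18), Hdac2 (-0.05), Hdac4 (-0.16) and Hdac8 (-0.02), with cyclic loess for Hdac8 (-0.04), as deposited for Hdac1 (-0.61), Hdac2 (-0.49), Hdac3 (-0.38), Hdac4 (-0.55) and Hdac8 (-0.31), with weights for Hdac4 (-0.10), and with the actin ratio for Hdac7 (0.04) and Hdac11 (0.17). For 24 h minus 6 h they turned with loess (0.02) and as deposited (0.08) for Hdac5, with weights for Hdac11 (-0.19), and with the actin ratio for Hdac1 (0.01) and Hdac11 (-0.27). Leaving out 1 array gave both signs for Hdac6 at 6 h (-0.72 to 0.03). At 24 h it did so for Hdac1 (-0.03 to 0.32), Hdac4 (-0.14 to 0.29), Hdac8 (-0.15 to 0.28) and Hdac9 (-0.51 to 0.02). For 24 h minus 6 h it did so for Hdac1 (-0.21 to 0.01), Hdac5 (-0.14 to 0.20), Hdac6 (-0.58 to 0.23) and Hdac11 (-0.15 to 0.40). As deposited, the median gene differed by -0.68 at 6 h and -0.62 at 24 h. Hdac3 had no value without s_at probe sets. The cause of these shifts was not tested.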
